A study of Mus musculus with 7 samples.

Results

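A set of 10 genes that mark lateral plate and heart mesoderm was followed through the differentiation of mouse embryonic stem cells. The 10 genes were chosen by name (Hand1, Hand2, Foxf1, Tbx5, Tbx20, Nkx2-5, Mef2c, Myh6, Myl7 and Tnnt2), and all 10 were found among the 30590 rows of the expression table. The cells were Bry-GFP embryonic stem cells, in which green fluorescent protein is read from the locus of Brachyury, a streak and mesoderm gene, and 7 polyadenylated RNA libraries were sequenced. On day 0 (n = 2) they grew over a layer of mouse embryonic fibroblasts (feeders) in serum with LIF, a cytokine that holds them undifferentiated. By day 2 (n = 2) they had been taken off the feeders and kept in suspension, free of serum, so that they formed embryoid bodies. By day 4 (n = 2) they had been given Noggin, Wnt3a and Activin A, which the labels describe as a primitive streak induction, and by day 6 (n = 1) basic FGF in place of those factors. Every aggregate sampled on days 4 and 6 had been through Noggin, and no library without Noggin was given, so Noggin, the other factors and time in culture cannot be told apart. Whether feeder cells were removed before the day 0 RNA was taken is not stated in the labels.

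Lateral plate mesoderm is the outer part of the mesoderm of the embryo and gives rise to the heart, the limb buds, the body wall and the smooth muscle of the gut. In the embryo it forms where signalling by bone morphogenetic proteins (BMPs) is high. Noggin is a secreted protein that binds BMPs and keeps them from their receptors. HAND, FOXF, T-box, NKX2 and MEF2 transcription factors act early in this tissue, and the contractile genes of the sarcomere, the force-producing unit of heart muscle, are switched on after them.

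Levels are given as log2 of 1 plus scaled reads and are not corrected for gene length, so they are compared between libraries and not between genes. Each library held roughly 2860000 to 5330000 reads. In each library low values lay in steps, and the third step, the level of 3 reads, stood between 1.45 and 2.30. Values at or below that level are close to the limit of detection, and numbers of reads given here, of a gene or a library, are estimates from these steps. They carry the height of the low steps over to higher values, although the values look quantile normalized, so they are rough. A value of 0 can also be a failed estimate, since Gapdh, a glycolysis gene of every cell, ran from 0 to 7.13. Such genes are called listed at 0. In bulk RNA, fewer cells of a type and less RNA per cell cannot be told apart.

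Most of the 10 genes were scarcely detected. Hand1, Nkx2-5 and Tnnt2 were not above the level of 3 reads in any library, Hand2, Tbx5, Foxf1 and Myl7 were above it in 1 to 3 libraries, and Tbx20, Mef2c and Myh6 were above it in all 7. The number of genes above it was 7 and 6 of 10 in the day 0 libraries, 3 in each of the 4 libraries of days 2 and 4, and 4 on day 6. The level of 3 reads was itself lowest in the day 0 libraries, at 1.45 and 1.71, against 1.81 to 2.30 later, so low values passed it more easily there. The summed level of the 10 genes was 6.00 and 5.99 (day 0), 6.11 and 5.88 (day 2), 5.09 and 5.27 (day 4) and 6.84 (day 6). This sum mostly reflects the genes with most reads. On day 6 Tbx20 had about 56.6 reads, Mef2c about 28.5 and every other gene about 6.8 or fewer, so the high sum is not a trait of the set.

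**Figure D1:**
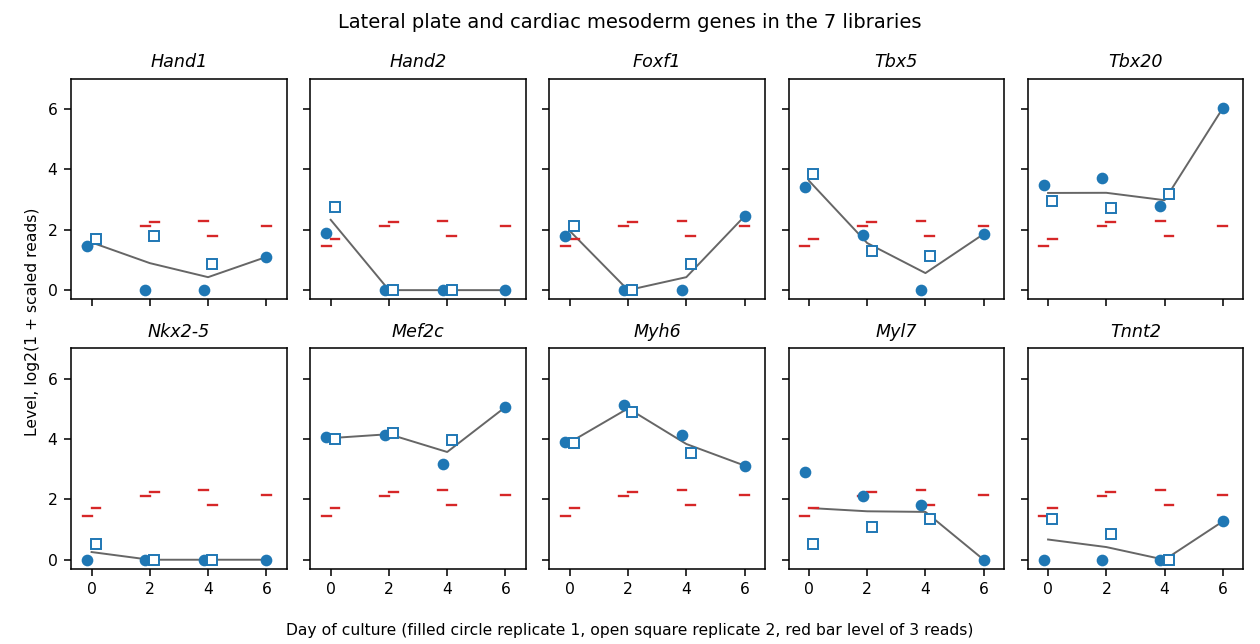
Level of each of the 10 genes, as log2 of 1 plus scaled reads, against day of culture. Filled circles are replicate 1, open squares replicate 2, lines join the means of each day and red bars mark the level of 3 reads in each library. Tbx20 stands at 6.03 on day 6 after 2.72 to 3.73 in the other 6 libraries, while Hand1, Nkx2-5 and Tnnt2 stay at or under the red bars.

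Hand1 and Hand2 encode related basic helix-loop-helix factors of the heart, limb buds and lateral plate. Positions are those of GENCODE on GRCm38, where all 10 are protein-coding. Hand1 (chromosome 11, 57828705 to 57832818, minus strand) was at 1.45 and 1.71 (day 0), 0 and 1.79 (day 2), 0 and 0.86 (day 4) and 1.10 (day 6). These values amount to at most about 3 reads in any library, and the days overlap. Hand2 (chromosome 8, 57320983 to 57324633, plus strand) stood at 1.89 and 2.77 in the day 0 libraries, about 4.4 and 6.9 reads, and was listed at 0 in all 5 later libraries. The exons of Hand2 overlap those of the antisense gene Hand2os1, and the labels do not say if strand was used in counting, so reads of the pair may not have been told apart.

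Foxf1, a forkhead factor of the lateral plate layer around the gut and of its later smooth muscle (chromosome 8, 121084386 to 121088144, plus strand), stood at 1.81 and 2.11 in the day 0 libraries. It was listed at 0 in both libraries of day 2, stood at 0 and 0.86 in those of day 4, and was at 2.45 on day 6. The day 6 value is about 3.9 reads, near that of the day 0 libraries at about 4.1 reads each. Its exons overlap those of Gm27530 on the other strand. Fendrr, a long noncoding RNA transcribed beside Foxf1, was not above the level of 3 reads in any library. Tbx5, a T-box factor of the heart and forelimb (chromosome 5, 119832668 to 119885219, plus strand), was at 3.41 and 3.84 (day 0), 1.82 and 1.30 (day 2), 0 and 1.13 (day 4) and 1.86 (day 6). Both day 0 libraries lay above all 5 later ones, which were all under the level of 3 reads.

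Nkx2-5, a homeobox factor of the heart fields (chromosome 17, 26838664 to 26845009, minus strand), was listed at 0 in 6 of 7 libraries and was at 0.51, the value of 1 read, in day 0 replicate 2. Mef2c (chromosome 13, 83504034 to 83667080, plus strand), a MADS-box factor of muscle and of the second heart field that is also active in endothelium, neural crest and neurons, was at 4.07 and 3.99 (day 0), 4.12 and 4.20 (day 2), 3.18 and 3.96 (day 4) and 5.06 (day 6). The day 6 library was the highest of the 7, both day 4 libraries were the lowest, and the days did not overlap. The difference of day 6 from day 4 (log2 1.49, 95% interval 0.34 to 2.64) did not pass (limma adjusted p = 0.118). Its relatives Mef2a and Mef2d were detected in every library, and Mef2a fell by 1.47 from day 0 to day 2 (limma adjusted p = 0.0105), a call lost without any 1 of the 6 libraries of days 0 to 4 (adjusted p = 0.0611 to 0.174).

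Tbx20, a T-box factor of the heart that is also made by motor neurons of the embryonic hindbrain (chromosome 9, 24718138 to 24774303, minus strand), had the largest difference of the 10 genes between day 4 and day 6. It was at 3.49 and 2.95 (day 0), 3.73 and 2.72 (day 2), 2.79 and 3.17 (day 4) and 6.03 (day 6). The first 6 libraries held about 4.4 to 15.1 reads and the day 6 library about 56.6. The days up to day 4 overlapped, and day 6 lay above all of them. The rise from day 4 to day 6 was 8.25-fold (log2 3.04, SE 0.61, 95% interval 1.59 to 4.49, limma adjusted p = 0.0477). Day 6 has 1 library, which the fit assumes to vary like the other days, so that rise has no replicate check. It kept its size but not its call without any 1 of the 6 other libraries (log2 2.85 to 3.23, adjusted p = 0.0634 to 0.183), and with a replicate block it was 2.85 (adjusted p = 0.0762).

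The RefSeq promoter table (GRCm38.p6) held 10 start sites for 7 of the 10 genes; Hand1, Foxf1 and Tbx5 were not matched. The 250 bases before the start are shown for Tbx20, which rose on day 6, for Hand2, which was seen on day 0 alone, and for Myl7, a contractile gene near the limit of detection. They lie at chr9:24774304-24774553 (minus strand), chr8:57320733-57320982 (plus strand) and chr11:5898783-5899032 (minus strand), and capitals mark CpG dinucleotides, the sites of DNA methylation.
Tbx20: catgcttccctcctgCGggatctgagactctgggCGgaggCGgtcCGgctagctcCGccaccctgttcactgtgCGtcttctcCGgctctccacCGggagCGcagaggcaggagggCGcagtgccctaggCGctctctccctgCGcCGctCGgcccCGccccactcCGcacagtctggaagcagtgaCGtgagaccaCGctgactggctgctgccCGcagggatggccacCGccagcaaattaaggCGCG
Hand2: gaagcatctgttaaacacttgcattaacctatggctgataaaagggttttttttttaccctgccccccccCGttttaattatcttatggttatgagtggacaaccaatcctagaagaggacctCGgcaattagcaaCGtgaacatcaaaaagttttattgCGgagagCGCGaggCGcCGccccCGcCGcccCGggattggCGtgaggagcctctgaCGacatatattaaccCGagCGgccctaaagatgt
Myl7: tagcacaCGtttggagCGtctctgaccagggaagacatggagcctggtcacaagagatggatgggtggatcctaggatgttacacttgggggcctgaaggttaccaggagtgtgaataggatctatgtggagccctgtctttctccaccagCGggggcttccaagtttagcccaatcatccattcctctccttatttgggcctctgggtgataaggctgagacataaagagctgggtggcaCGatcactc

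These windows held 22, 15 and 4 CpG dinucleotides, against a median of 6 over 32851 promoters of the same length. A count of at least 20, as at Tbx20, was found in 17.9% of all promoters and a count of at most 5, as at Myl7, in 49.6%. The other windows of the 10 genes held 8 at Nkx2-5, 2 at Myh6, 5 and 0 at the starts of Tnnt2 and 1, 6 and 4 at those of Mef2c. Of 5 motifs searched, on both strands and with overlaps counted, GGCGCC, a sequence known from BMP-responsive promoters, occurred at Hand2 (9.59% of all promoters held it). At Myl7 the motif of GATA factors, GATAAG, occurred (6.55%). The CArG box, which serum response factor binds, also occurred there (1.47%). TATAAA occurred at 2 of the starts of Mef2c (12.4%), and CAGCTG, an E-box, at 1 start of Tnnt2 (13.0%). None of the 5 occurred at Tbx20, Myh6 or Nkx2-5. Such a match describes the letters only.

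None of the 3 contractile genes passed the test in any of the 3 comparisons between successive days. Myh6, the alpha myosin heavy chain of heart muscle (chromosome 14, 54941921 to 54966927, minus strand), was at 3.90 and 3.88 (day 0), 5.12 and 4.91 (day 2), 4.14 and 3.53 (day 4) and 3.12 (day 6). Both day 2 libraries, with about 30.3 and 22.3 reads, lay above all others, and day 6, with about 6.8 reads, lay below all others. Neither the difference of day 2 from day 0 (log2 1.12, SE 0.37, limma adjusted p = 0.105) nor that of day 4 from day 2 (log2 -1.18, SE 0.37, adjusted p = 0.133) passed, and the F test over all days did not either (adjusted p = 0.0587). Of the 6851 stretches of 50 bases in Myh6 transcripts, 20.2% also occur in Myh7, the beta myosin heavy chain gene beside it, and the exons of Myh6 overlap an antisense gene, Gm49130, so its values are uncertain. Myh7 itself stood at 1.05 and 1.48 (day 0), 3.13 and 1.38 (day 2), 4.33 and 4.00 (day 4) and 5.44 (day 6), and changed over the days by the F test (adjusted p = 0.0229). Day 4 and day 6 lay above all libraries of days 0 and 2.

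Myl7, the regulatory myosin light chain of the atria (chromosome 11, 5896637 to 5898782, minus strand), was at 2.92 and 0.51 (day 0), 2.12 and 1.09 (day 2), 1.83 and 1.34 (day 4) and 0 (day 6). Only day 0 replicate 1 was above the level of 3 reads, with about 9.8 reads, and it differed from its replicate by more than the means of any pair of days did. Tnnt2, the cardiac troponin T of the thin filament (chromosome 1, 135836354 to 135852260, plus strand), was listed at 0 in 4 of 7 libraries and stood at 1.34 in day 0 replicate 2, 0.84 in day 2 replicate 2 and 1.27 on day 6, each about 2.2 reads or fewer.

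**Figure D2:**
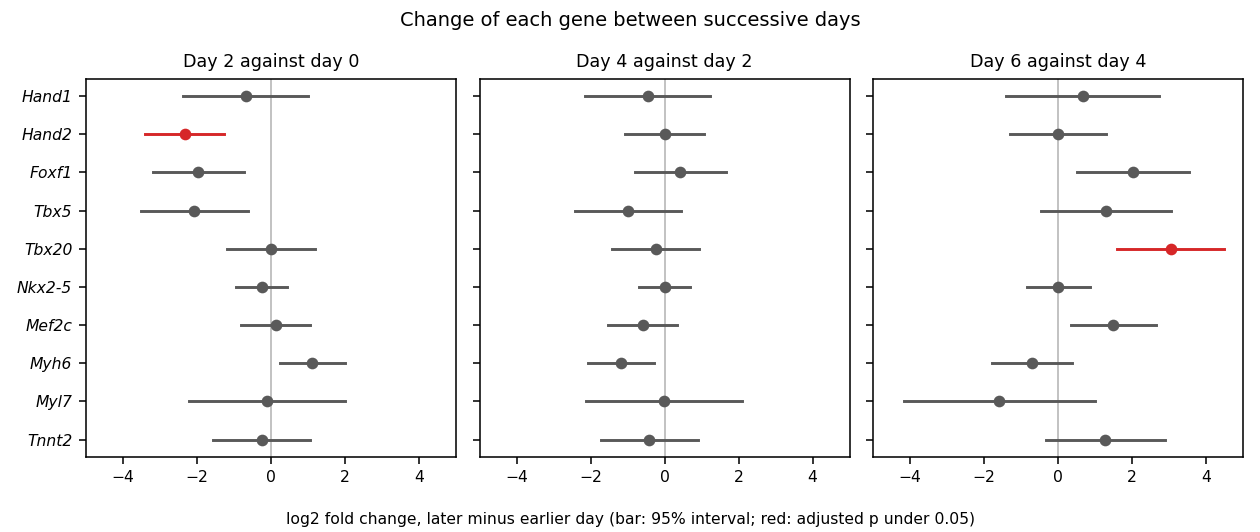
Change of each gene between successive days, on the x axis as log2 fold change of the later minus the earlier day, with points for the estimate, bars for its 95% interval and red for an adjusted p under 0.05. Hand2 from day 0 to day 2 (-2.33) and Tbx20 from day 4 to day 6 (3.04) are the red ones.

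Differences between successive days were tested with limma over all 21813 genes above 0 in any library, with a threshold of 0.05 on the adjusted p. From day 0 to day 2, 1 of 10 genes passed, beside 12.0% of all genes (5.76% higher and 6.20% lower on day 2). That gene was Hand2, which fell by 2.33 from 2.33 ± 0.62 (SD, n = 2) to 0 in both libraries (adjusted p = 0.0208), a change for which no fold is given because day 2 was listed at 0. Its call held without day 0 replicate 1 and was lost without any 1 of the other 5 libraries of days 0 to 4 (adjusted p = 0.0521 without day 0 replicate 2, 0.103 and 0.112 without the first or second of day 2, 0.0933 and 0.0846 without the first or second of day 4). Tbx5 (log2 -2.07, SE 0.60, adjusted p = 0.075) and Foxf1 (log2 -1.96, SE 0.51, adjusted p = 0.0554) did not pass. The median over the 10 genes was -0.25 and that over all genes 0.05. Leaving out 1 library of days 0 to 4 left 0 to 691 of 2609 genes called in this step, with 0 without day 4 replicate 1, so the calls of single genes in this step are given with how many of these 6 fits kept them.

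From day 2 to day 4, the step that included Noggin, 0 of 10 genes passed, beside 3.59% of all genes (1.45% higher and 2.13% lower on day 4), and 1 (Myh6) had an unadjusted p under 0.05. The median was -0.33, against 0.00 over all genes. The 95% intervals were narrowest for Nkx2-5 (-0.70 to 0.70) and widest for Myl7 (-2.13 to 2.09). Nkx2-5 was listed at 0 in every library of days 2 and 4, so its narrow interval does not measure an absence of change. Changes of severalfold in the low genes were not detectable at this depth. From day 4 to day 6, 1 of 10 genes passed (Tbx20), beside 4.46% of all genes (1.27% higher and 3.18% lower on day 6), and 3 (Tbx20, Mef2c and Foxf1) had an unadjusted p under 0.05. The median was 0.97, against 0.00 over all genes. It lies between Hand1 (log2 0.67) and Tnnt2 (log2 1.27), which had about 1.0 and 1.2 reads on day 6, so it rests on values near the limit of detection. Over the whole course 4 of 10 passed the F test (Hand2, Tbx5, Tbx20 and Foxf1; adjusted p = 0.0205, 0.0395, 0.0342 and 0.0438), beside 28.6% of all genes, and without 1 library of days 0 to 4 the number was 0 or 1.

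Hand2 fell between day 0 and day 2 together with fibroblast genes. All 12 feeder fibroblast markers were above the level of 3 reads on day 0, and their summed level was 14.35 and 14.54 (day 0), 10.77 and 10.17 (day 2), 8.57 and 8.38 (day 4) and 8.84 (day 6). Of the 12, 10 fell from day 0 to day 2 (median -4.23), among them Acta2, a smooth muscle actin, Lox, a collagen cross-linking enzyme, and Col1a1, a fibrillar collagen chain. Of 22 other lateral plate and heart progenitor factors, 6 fell in the same step and 2 rose (median -0.19). Osr1, a factor of lateral plate and kidney mesoderm, fell from 3.94 and 4.56 to 0 in both libraries (adjusted p = 0.00488). Prrx1, a homeobox gene of limb and body wall mesenchyme, fell by 4.01 from 9.71 and 9.90 (adjusted p = 0.00273), Zfpm2, a GATA cofactor, fell by 3.71, Tbx18, a factor of the epicardium and sinus node, fell by 3.53, and Smarcd3, a chromatin remodeller subunit of the early heart, fell by 2.57. Of the 6 fits that each left out 1 library, 3 kept the call of Osr1, 1 that of Prrx1 and that of Zfpm2, and 0 that of Tbx18 or Smarcd3, while 2 to 4 kept those of Acta2, Lox and Col1a1. Whether feeder RNA had a part in the day 0 values of Hand2, Tbx5 and Foxf1 was not tested.

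The 2 factors that rose in that step were Wt1 (2.10), a gene of the epicardium and kidney, and Isl1 (2.06), a second heart field and motor neuron factor that was listed at 0 in both day 0 libraries, with 1.86 and 2.25 on day 2, at or below the level of 3 reads. Neither call was kept in any of the 6 fits. From day 2 to day 4, 2 of 22 fell, Wt1 by 4.13 (adjusted p = 0.0154) and Prrx1 by 2.22 (adjusted p = 0.0396), and 0 rose. Mesp1, the first factor of heart mesoderm, Tcf21, of the epicardium, and Myocd, a heart and smooth muscle coactivator, were not above the level of 3 reads in any library. Gata4 and Gata6, GATA factors of heart and endoderm, were above it throughout. Gata4 was at 4.38 and 5.25 (day 0), 3.83 and 5.46 (day 2), 3.11 and 4.44 (day 4) and 2.72 (day 6), with overlapping days up to day 4, and neither gene passed in any of the 3 comparisons.

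Among 23 other heart muscle and sarcomere genes, 7 were not above the level of 3 reads in any library: Tnni1, Myl2, Myl4, Nppa, Nppb, Pln and Csrp3, which encode troponin, myosin light chains, natriuretic peptides, a calcium pump regulator and a Z-disc protein. From day 0 to day 2, 2 rose, Hcn4, a pacemaker channel gene, by 2.55 and Myh7b by 2.09, and 3 fell, Tpm1 by 3.40, Tnni3, the cardiac troponin I, by 1.99 and Nexn by 1.54. The calls of Myh7b, Tpm1 and Tnni3 were kept in 1 of the 6 fits each, and those of Hcn4 and Nexn in 0. From day 2 to day 4, 1 rose, Tnni3, from 0 in both libraries to 3.19 and 3.30 (adjusted p = 0.0257), and 1 fell, Ttn, the giant sarcomere protein titin, which went from 7.16 and 7.58 to 2.64 and 2.14 (log2 -4.98, SE 0.35, adjusted p = 0.00755). Ttn had its highest level on day 2, as Myh6 did. From day 4 to day 6, 0 of 23 passed (lowest adjusted p = 0.0807). Of 10 skeletal muscle markers, 5 including the master factors Myod1 and Myog were never above the level of 3 reads. Mylpf, a skeletal myosin light chain that was at 7.13 in both day 2 libraries, fell by 3.89 by day 4 (adjusted p = 0.00816).

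The BMP pathway was read beside these genes. Ligands bind receptor kinases that activate Smad1, Smad5 and Smad9, and Id genes, Smad6, Smad7, Bambi, Msx1 and Msx2 are known to respond. From day 0 to day 2, before Noggin, 3 of 9 response genes fell and 0 rose (median -0.88). Id1, a helix-loop-helix inhibitor, went from 7.13 and 7.28 to 4.65 and 4.34 (log2 -2.71, SE 0.26, adjusted p = 0.00237), Id3 fell by 2.48 and Smad7, an inhibitory Smad, fell by 1.72. The call of Id1 was kept in 3 of the 6 fits and those of Id3 and Smad7 in 1 each. The summed level of feeder markers fell in the same libraries, and its part in these falls was not tested. From day 2 to day 4, with Noggin, 1 of 9 rose and 0 fell (median 0.31): Id4 went from 4.36 and 4.12 to 5.70 and 5.83 (adjusted p = 0.0489). Id1 was at 4.92 and 5.25 on day 4 and Id3 at 6.34 and 6.67, and neither the change of Id1 (log2 0.59, 95% interval -0.04 to 1.22, adjusted p = 0.261) nor that of Id3 (log2 1.07, 95% interval 0.08 to 2.06, adjusted p = 0.197) passed. Both day 4 libraries lay above both day 2 libraries for each of these 3 Id genes. They lay below both day 2 libraries for Smad7 (6.48 and 6.42, then 5.63 and 5.41, adjusted p = 0.0615), Msx1 (3.01 and 3.91, then 2.30 and 1.72) and Bambi, a decoy receptor gene (5.13 and 5.87, then 4.59 and 5.08), none of which passed. Id2 differed by -0.24 (adjusted p = 0.676).

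**Figure D3:**
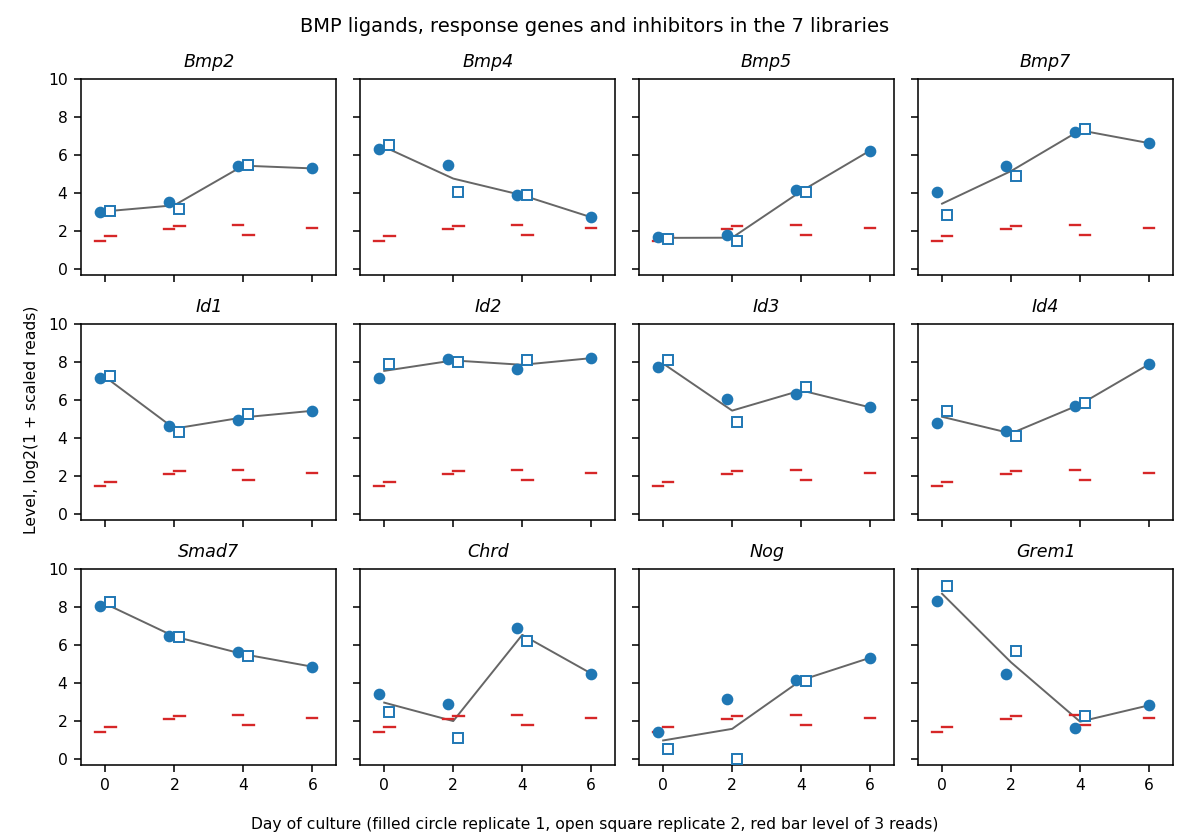
Levels, as log2 of 1 plus scaled reads, of 4 BMP ligands, 5 response genes and 3 inhibitors against day of culture, with filled circles for replicate 1, open squares for replicate 2, lines through the means of each day and red bars at the level of 3 reads. Id1 drops from 7.13 and 7.28 to 4.65 and 4.34 between days 0 and 2, while Chrd and Bmp2 stand higher on day 4 than on day 2.

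Of the 5 BMP ligands tested, 2 rose from day 2 to day 4 and 0 fell (median 2.09). Bmp2 went from 3.52 and 3.18 to 5.40 and 5.47 (log2 2.09, SE 0.34, adjusted p = 0.029), and Bmp5 from 1.81 and 1.48 to 4.14 and 4.04 (log2 2.44, SE 0.42, adjusted p = 0.0349). Bmp4, the ligand of the posterior streak and extraembryonic tissue, was at 6.33 and 6.51 (day 0), 5.45 and 4.06 (day 2), 3.89 and 3.87 (day 4) and 2.72 (day 6). It changed over the days by the F test (adjusted p = 0.0145) and was lowest on day 6, with no step between successive days passing. Among 5 inhibitors, Chrd, which binds BMPs outside the cell, rose from 2.91 and 1.09 to 6.87 and 6.20 between days 2 and 4 (log2 4.54, SE 0.68, adjusted p = 0.0252), and Grem1 fell by 3.12 (adjusted p = 0.0303). The cells' own Nog went from 3.18 and 0 to 4.17 and 4.13 without passing (log2 2.56, adjusted p = 0.207). Of 8 receptors and Smads, 0 passed in that step. In day 6 against day 4, Id4 rose by 2.11 to 7.88 (adjusted p = 0.0357), the receptor gene Bmpr1a rose by 0.74 (adjusted p = 0.0411) and the inhibitor Fst fell by 1.02 (adjusted p = 0.0412). Leaving out any 1 library of days 0 to 4 ended all calls of day 4 against day 2, over all genes as well. It also ended the day 6 calls of Id4 (adjusted p = 0.0596 to 0.171), Bmpr1a (0.0519 to 0.168) and Fst (0.0782 to 0.168).

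Besides Tbx20, 2 other factors of this tissue rose on day 6. Of the 22 other lateral plate and heart progenitor factors, these 2 rose from day 4 to day 6 and 0 fell (median 0.80). Isl1 went from 2.01 and 2.19 to 6.60 (log2 4.50, SE 0.60, adjusted p = 0.0219), and Prrx1 from 4.12 and 3.03 to 6.15 (log2 2.57, SE 0.49, adjusted p = 0.0443). The call of Isl1 held without either day 2 library and was lost without any 1 library of days 0 and 4, and that of Prrx1 was lost without any 1 of the 6 (highest adjusted p = 0.168 and 0.222). Of the 12 feeder fibroblast markers, 1 rose in this step, Col5a2, a collagen chain, by 1.88 (adjusted p = 0.0316), a call lost without any 1 library of days 0 to 4. The median of the 12 was 1.00, and 6 of them had an unadjusted p under 0.05, among them Lum, a matrix proteoglycan (2.30 and 0 on day 4, 4.55 on day 6), and Dcn, another (3.98 and 3.08, then 4.95). The list was split. Thy1 (log2 -1.32), Col1a1 (-1.13), Col6a3 (-0.68), Tagln (-0.30) and Col1a2 (-0.11) were lower on day 6 without passing. The part of feeder markers in the day 6 levels of Tbx20, Isl1 and Prrx1 was not tested. The heart genes Hcn4 (4.08 and 3.75 on day 4, 4.63 on day 6) and Hey2, a Notch target of the ventricle (3.61 and 3.99, then 4.95), were also highest on day 6 without passing, while Nkx2-5 and Hand2 were listed at 0 and Myl7 was too. Hcn4 and Hey2 were picked after their values were seen. Hey2 is among the 22 progenitor factors with the median of 0.80. Hcn4 is among the 23 other heart muscle and sarcomere genes, whose median in this step was -0.62, with Acta1 at 2.09 and 3.24 and then 0. Des, the muscle intermediate filament gene of that list, was at 4.42 and 4.86 and then 3.34.

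Neuron markers had their highest summed level on day 6, as Tbx20 did. The summed level of 7 neuron markers was 10.33 and 10.16 (day 0), 9.82 and 9.85 (day 2), 11.68 and 10.63 (day 4) and 12.20 (day 6), with all 7 above the level of 3 reads on day 6. This sum mostly reflects the genes with most reads, on day 6 Map2 (10.32) and Dcx (10.31). Map2, Dcx, Elavl3, Elavl4 and Neurod1 were highest on day 6. Stmn2 was highest on day 0 (9.92 and 9.63, against 9.57 on day 6) and Tubb3 in day 4 replicate 1 (9.21, against 8.02 on day 6). None of the 7 passed in day 6 against day 4 (median 1.17), and 3 had an unadjusted p under 0.05. A list of 15 motor neuron genes, Isl1 among them, was chosen after the values were seen and so was not tested. On day 6, 12 of them were above the level of 3 reads. There 10 stood higher than in both day 4 libraries, beside 38.0% of all genes tested, but a list chosen in this way cannot be judged against that share. Among the 10 were Nkx6-1 (6.13 and 6.09, then 8.44), Phox2a (3.79 and 4.01, then 4.91) and Lhx4 (2.94 and 2.25, then 5.33). Mnx1 (1.83 and 3.08, then 2.97), Nkx6-2 (4.26 and 3.28, then 3.63) and Prph (2.30 and 0.86, then 2.14) did not stand higher. Isl2 was listed at 0 in every library, and Lhx3 was listed at 0 on day 6. For 5 neural crest markers, the summed level was 7.88 and 8.48 (day 0), 7.02 and 7.14 (day 2), 6.74 and 7.09 (day 4) and 7.61 (day 6). It mostly reflects Ets1, which stood at 7.61 and 8.27 on day 0 and 6.98 on day 6. On day 6 Foxd3 was listed at 0 and Sox10 was at 1.72, under the level of 3 reads. The part of these cell types in the level of Tbx20 was not tested.

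**Figure D4:**
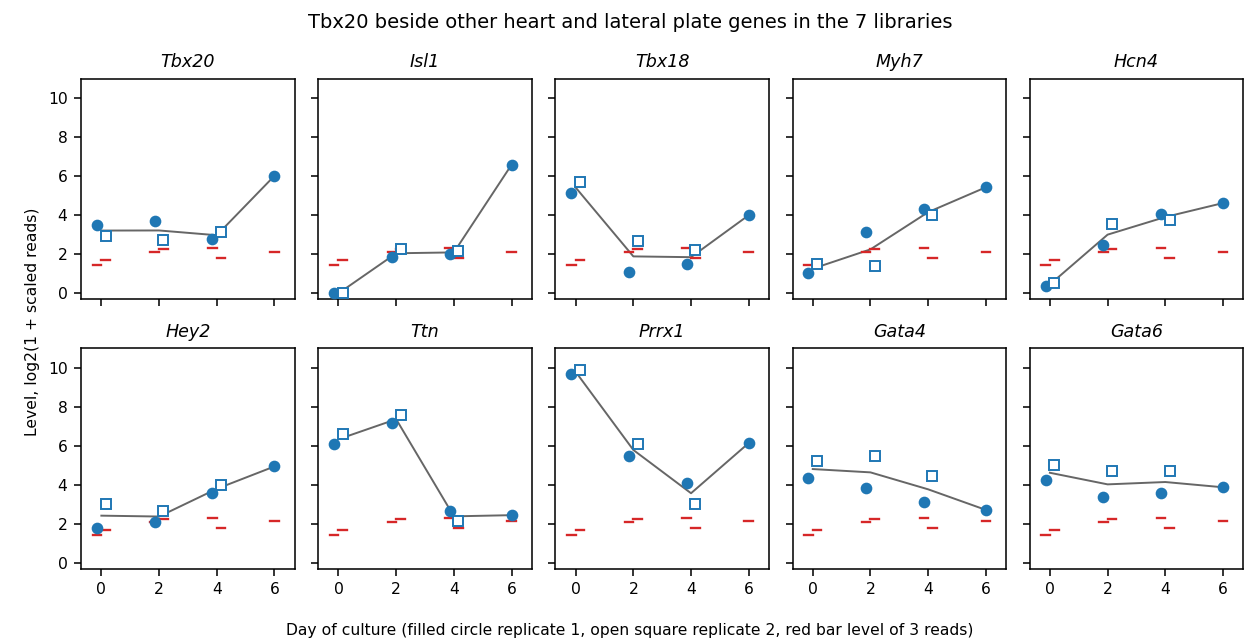
Levels, as log2 of 1 plus scaled reads, of Tbx20 and 9 other heart or lateral plate genes against day of culture, with filled circles for replicate 1, open squares for replicate 2, lines through the means of each day and red bars at the level of 3 reads. Tbx20 (6.03) and Isl1 (6.60) have their highest value on day 6, while Ttn is highest on day 2 and Prrx1 on day 0.

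Tbx20 was the only one of the 10 genes that was at log2 of 11 or more on average and had day means at least 2 apart, so that genes of like pattern were sought for it among 11799 others. The closest by root mean square difference of centred levels over the 7 libraries were Gm9747 (0.35), Cspg5, a proteoglycan gene of the nervous system (0.42), and Umad1 (0.49). Cspg5 was at 3.83 and 3.85 (day 0), 4.18 and 2.75 (day 2), 3.20 and 3.97 (day 4) and 5.58 (day 6). Gm9747, Cspg5 and Umad1 were each highest on day 6, as Tbx20 was. Each was also lower in day 2 replicate 2 than in day 2 replicate 1. They were picked for closeness to Tbx20 over these same 7 libraries, so this likeness follows from the choice and is no separate result. Its source was not tested.

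The mesoderm lists nearest to the lateral plate were also read on day 6. Of 9 streak and paraxial mesoderm genes tested, 0 rose and 1 fell, Mixl1, a streak homeobox gene that went from 3.45 and 4.63 to 0 (adjusted p = 0.0428, and 0.0806 to 0.168 without 1 library of days 0 to 4). Of 8 endothelial and blood markers 0 passed in that step. In day 4 against day 2 the adhesion gene Pecam1, of that list, fell from 7.98 and 7.43 to 6.15 and 5.89 (limma adjusted p = 0.0232). Pecam1 was already at 6.91 and 6.80 on day 0, and which cells made it was not tested.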

How the data were processed

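RNA was measured in 7 libraries, and the deposited table gives natural log values of 1 plus scaled reads, a unit inferred from the values. Ranked from the highest down, the first 9896 values differ by less than 0.01 between libraries, as after quantile normalization. The submitters' processing notes name GRCm38. Aligner, counting tool and strand setting: not given in the sources used here. All 7 value columns were mapped to samples through the labels, 1 of them with a letter O in place of a zero in its name.

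Values were divided by the natural log of 2. The 103 rows of spike-in, reporter and selection sequence and the 8674 genes at 0 throughout were left out, leaving 21813 genes. Differences were tested with limma 3.58.1 in R 4.3.3 (trend, robust moderation, 1 mean per day, 3 residual degrees of freedom, no replicate block), with Benjamini-Hochberg adjustment over all genes at a threshold of 0.05, and checked on simulated data. Fold changes on this scale understate changes of low genes. The labels call the replicates biological. The p-values set each difference against the spread between replicates of days 0, 2 and 4, moderated over genes, and day 6 adds nothing to that spread. Where a gene is at 0 in both libraries of a day, as Hand2 on days 2 and 4, the spread of that day is 0.

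Step heights gave the reads per library (python 3.11.15). The promoter windows come from RefSeq, and gene positions and exon overlaps from GENCODE on GRCm38. Markers are in 14 lists besides the 10 genes. Some genes of these lists are not reported here and were left out of the counts and sums of their lists. All 10 genes were named, as were up to 5 genes past the threshold from each list, further list genes with their values, and up to 3 genes of like pattern. The genes and lists were chosen with earlier results of these data known. Alternatives were a mean-level filter (log2 of 11), median centring, an added constant of 10, plain moderation, no trend, a replicate block, leaving out each library of days 0 to 4, and a fit without day 0.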

Additional observations from a re-analysis of the deposited data

How the results depend on the processing

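Of the values for single genes under the alternatives, 334 kept their side of the threshold, 15 lost their call and 3 gained one, and no called value changed sign. The rise of Tbx20 on day 6 kept its direction in all 13 alternatives (log2 2.13 to 3.23) and its call in 3 (mean-level filter, median centring, added constant; adjusted p = 0.0168 to 0.0474). Tbx5 (adjusted p = 0.0273) and Foxf1 (0.048) passed from day 0 to day 2 with the added constant of 10.

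For day 2 against day 0, 1 of the 10 genes passed, against 0 with the mean-level filter (where 3 of the 10 are tested), 3 with the added constant and 2 without robust moderation; without the mean-variance trend 1419 genes were called in place of 2609. For day 4 against day 2, 782 genes were called, against 1422 with the mean-level filter, 172 without robust moderation, 168 without the trend and 0 without the day 0 libraries. For day 6 against day 4, 972 genes were called, against 2200 with the filter, 27 without the trend, 606 with the replicate block and 7 without the day 0 libraries, and of the 10 genes 0 passed in place of 1 without robust moderation, without the trend, with the block and without the day 0 libraries. For the F test 6232 genes were called, 3728 without the trend, and 4 of the 10 genes passed, against 2 with the filter, without robust moderation and without the trend, and 1 with the block. Leaving out 1 library of days 0 to 4 gave 0 to 691 genes and 0 to 1 of the 10 for day 2 against day 0, 0 genes and 0 of the 10 for day 4 against day 2, 0 to 295 genes and 0 of the 10 for day 6 against day 4, and 0 to 4181 genes and 0 to 1 of the 10 for the F test. These fits have 2 residual degrees of freedom. The cause of the other changes was not tested.

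Same-numbered libraries share a replicate number and the ending of their label, and the day 6 library has the ending of replicate 1. Deviations of same-numbered libraries correlated across 11800 genes at -0.0582 (days 0 and 2), -0.0662 (days 0 and 4) and 0.222 (days 2 and 4). These values do not settle whether the libraries are paired across days, and the main fit used no replicate block. Depth limits the 7 genes that were under the level of 3 reads in at least 4 libraries, and day 6 has 1 library.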
